A study of Mus musculus with 2 samples.

Results

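The 56 genes described here carry interferon and cytokine signals through Janus kinases and STAT factors, or belong to the antiviral and MHC class I programmes that such signals control. They were taken by symbol from a list of receptors, kinases, STAT and IRF factors, SOCS inhibitors, RNA sensors, antiviral genes and antigen presentation genes. All 56 were found among the 47719 genes of the table. RNA was sequenced from mouse tail keratinocytes, the main cells of the epidermis, in 1 library of genotype Pp6fl/fl and 1 library of genotype K5.Pp6fl/fl. Both came from C57BL/6J mice aged 8 weeks and were kept in culture for 3 days, with no further agent named. Pp6 encodes the catalytic subunit of the serine/threonine phosphatase PP6 and is named Ppp6c in the table. Both genotypes carry the floxed alleles, and the title of the second sample calls it cKO. The prefix K5 is read here as the promoter of keratin 5, a gene of basal keratinocytes, driving the deletion. The sources used here do not say whether a culture held cells of 1 mouse or of several. Pairs of values give Pp6fl/fl first and K5.Pp6fl/fl second.

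The libraries held 19374767 (Pp6fl/fl) and 17361260 (K5.Pp6fl/fl) estimated reads in genes. With 1 library per genotype there is no replicate check of any difference, no test was made, and every 95% interval covers counting error only. Ppp6c had 1074 and 707 reads, or 55.5 and 40.7 CPM, which is the count scaled to library size (fold 0.733, 0.666 to 0.807). By FPKM, which also divides by transcript length, Ppp6c stood at 30.6 and 16.8 (fold 0.548). Reads from outside a deleted part and from cells that kept the gene would count here too. Keratinocyte markers were abundant, with the basal keratin Krt14 at 30699 and 28561 CPM, its partner Krt5 at 17800 and 17101, and Perp at 3583 and 3730. All 12 markers of the list were expressed, but Krt15 (3.72 and 5.64 CPM) and the differentiation keratins Krt1 (13.3 and 12.5) and Krt10 (20.9 and 16.1) were low. The interval lay above 1 for 5 of the 12 and below 1 for 5, against 16.6% and 17.4% of all genes at 1 CPM or more. These shares are not alike in depth, because the interval narrows as reads rise. The markers had a median of 955 CPM, against 29.6 for all genes at 1 CPM or more. Among those below were Krt5, at a fold of only 0.961, Trp63, which encodes the epidermal factor p63 (fold 0.776, 0.759 to 0.793), and Krt10 (fold 0.770, 0.659 to 0.899). Defining leukocyte markers were absent: Ptprc (CD45), Cd3e, Cd207 and Cd74 had no reads in either library. Cd68, a lysosomal protein gene not limited to macrophages, was present at 29.7 and 24.97 CPM and held 575 of the 579 and 434 of the 443 reads of its list of 9. Reads of the T cell list of 7 came mainly from Thy1, with 52 of 52 and 31 of 34. The 8 Langerhans and dendritic cell markers summed to 4 and 3 reads. In bulk RNA, fewer cells of a type and less RNA per cell cannot be told apart.

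Interferons bind receptor pairs on the cell surface, whose Janus kinases phosphorylate STAT factors. For type I interferon, STAT2 and IRF9 belong to the complex that binds interferon-stimulated response elements in the promoters of antiviral genes. Interferon gamma acts through another receptor pair and drives IRF1 and the class I machinery, while SOCS proteins and USP18 damp the signal. Keratinocytes express these receptors, present peptides on MHC class I, and switch on antiviral genes when interferon or foreign RNA is sensed.

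Promoters are shown first because most of the antiviral genes that were nearly silent here hold the core letters of the interferon-stimulated response element. Whether any factor binds these letters in the cells used here was not tested. The core letters of the interferon-stimulated response element, GAAA followed after 2 bases of any kind by GAAA, were searched on both strands in windows from 250 bases before to 50 after each RefSeq start (GRCm38.p6). Of the 48 members with a window, 15 held a match (31.2%), against 1079 of 27025 genes (3.99%). Among antiviral members it was 8 of 11, and among cytokine receptors and Janus kinases 0 of 7 and 0 of 4. The 150 bases before the start follow for 6 members, 5′ to 3′ on the strand of the gene, with each match of this motif in capitals (overlapping matches run together). Isg15 and Ifit1 stand for antiviral genes with almost no reads, Bst2 for an antiviral gene above the floor, and B2m and H2-K1 for the 2 chains of the abundant class I molecule. Tap1 is shown because it starts 226 bases from Psmb9, on the opposite strand.
Isg15 (chr4:156200819-156200968, minus strand): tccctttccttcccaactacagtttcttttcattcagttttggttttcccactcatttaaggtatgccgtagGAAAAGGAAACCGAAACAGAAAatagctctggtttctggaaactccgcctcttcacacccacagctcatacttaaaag
Ifit1 (chr19:34640739-34640888, plus strand): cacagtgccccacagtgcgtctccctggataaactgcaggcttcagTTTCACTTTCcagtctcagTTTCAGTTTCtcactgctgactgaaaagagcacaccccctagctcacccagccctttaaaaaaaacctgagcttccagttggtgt
Bst2 (chr8:71537473-71537622, minus strand): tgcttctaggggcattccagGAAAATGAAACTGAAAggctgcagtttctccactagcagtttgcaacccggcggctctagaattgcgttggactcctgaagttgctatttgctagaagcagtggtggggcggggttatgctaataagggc
B2m (chr2:122147537-122147686, plus strand): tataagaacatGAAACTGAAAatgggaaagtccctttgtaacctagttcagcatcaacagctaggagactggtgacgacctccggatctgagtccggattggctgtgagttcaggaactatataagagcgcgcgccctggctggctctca
H2-K1 (chr17:34000348-34000497, minus strand): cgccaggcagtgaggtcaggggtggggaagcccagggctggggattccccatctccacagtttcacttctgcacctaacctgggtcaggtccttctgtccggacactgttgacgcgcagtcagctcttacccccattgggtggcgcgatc
Tap1 (chr17:34187406-34187555, plus strand): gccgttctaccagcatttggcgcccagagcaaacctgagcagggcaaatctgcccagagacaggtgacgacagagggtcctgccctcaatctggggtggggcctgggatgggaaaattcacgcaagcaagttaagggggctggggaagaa

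The Isg15 window holds 3 overlapping matches, whose first bases lie 78, 72 and 66 bases before the start. Ifit1 has its 2 matches 104 and 85 bases before the start, on the other strand of the DNA. Bst2 has 2, at 130 and 124 bases, and B2m has 1, at 139 bases. The windows of H2-K1 and Tap1 hold none, which says only that these letters are not there. Outside the antiviral group the inhibitor Socs1 has 2 overlapping matches, 83 and 77 bases before its start. In the RNA sensor genes Ifih1 and Ddx58 the match lies after the start. The letters TTCNNNGAA, which read alike on both strands and are the core of STAT-binding elements, were found in 10 of the 48 members with a window (20.8%), against 9.55% of all genes, and among antiviral members in 3 of 11. They occur in the windows of Irf1, 90 bases before the start, and of Socs3, 154 bases before it.

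Of the 56 members, 39 reached 1 CPM in at least 1 library, here called expressed, and 17 did not. The fold is the CPM of K5.Pp6fl/fl over that of Pp6fl/fl, followed in parentheses by its 95% interval. No expressed member was at least 2-fold higher, where 0.811% of 12325 expressed genes were, and none was at least 2-fold lower, where 0.195% were. At 1.5-fold, 1 member was higher, Ifih1, against 3.47% of expressed genes, and 1 was lower, Nlrc5, against 1.26%. The counting interval lay above 1 for 8 of the 39 (20.5%), where it did for 16.6% of expressed genes, and below 1 for another 8 (20.5%), where it did for 17.4%. These shares are near those of all genes. The median log2 ratio, taken after adding 0.5 CPM to both values, was 0.02 over the members and -0.01 over all expressed genes. The fold lay between 0.8 and 1.25 for 30 of the 39 (76.9%), against 81.3% of expressed genes. The expressed members had a median level of 23.8 CPM, against 29.6 for all expressed genes.

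**Figure D1:**
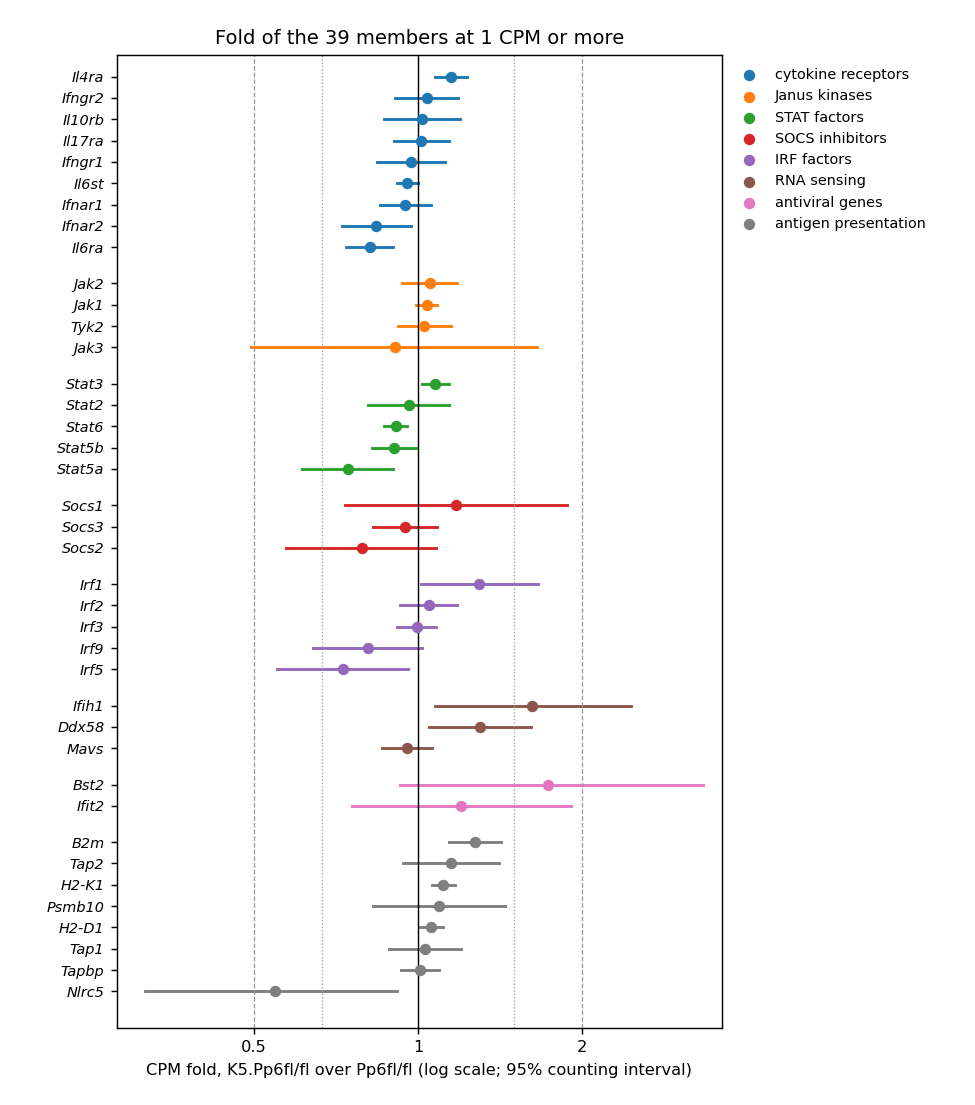
CPM fold (K5.Pp6fl/fl over Pp6fl/fl, log axis) of each member at 1 CPM or more in a library, coloured by role, with bars for the 95% counting interval. Dotted lines mark 1.5-fold and dashed lines 2-fold. No point passes a dashed line, and the widest bars belong to genes with few reads, such as Bst2 and Nlrc5.

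Levels per transcript length, in FPKM, ordered the members in much the same way in both libraries. The classical class I heavy chains H2-K1 (141 and 157 FPKM) and H2-D1 (109.5 and 114) were the highest. Next in the Pp6fl/fl library came Stat6 at 61.7, Jak1 at 60.5, B2m at 58.0 and Irf3 at 54.2. In the K5.Pp6fl/fl library these stood at 61.1, 75.6, 73.9 and 53.0, so that the order among Stat6, Jak1 and B2m changed. In all, 18 members were at 10 FPKM or more in both libraries, among them receptors, kinases, STAT and IRF factors and class I genes but no antiviral gene.

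**Figure D2:**
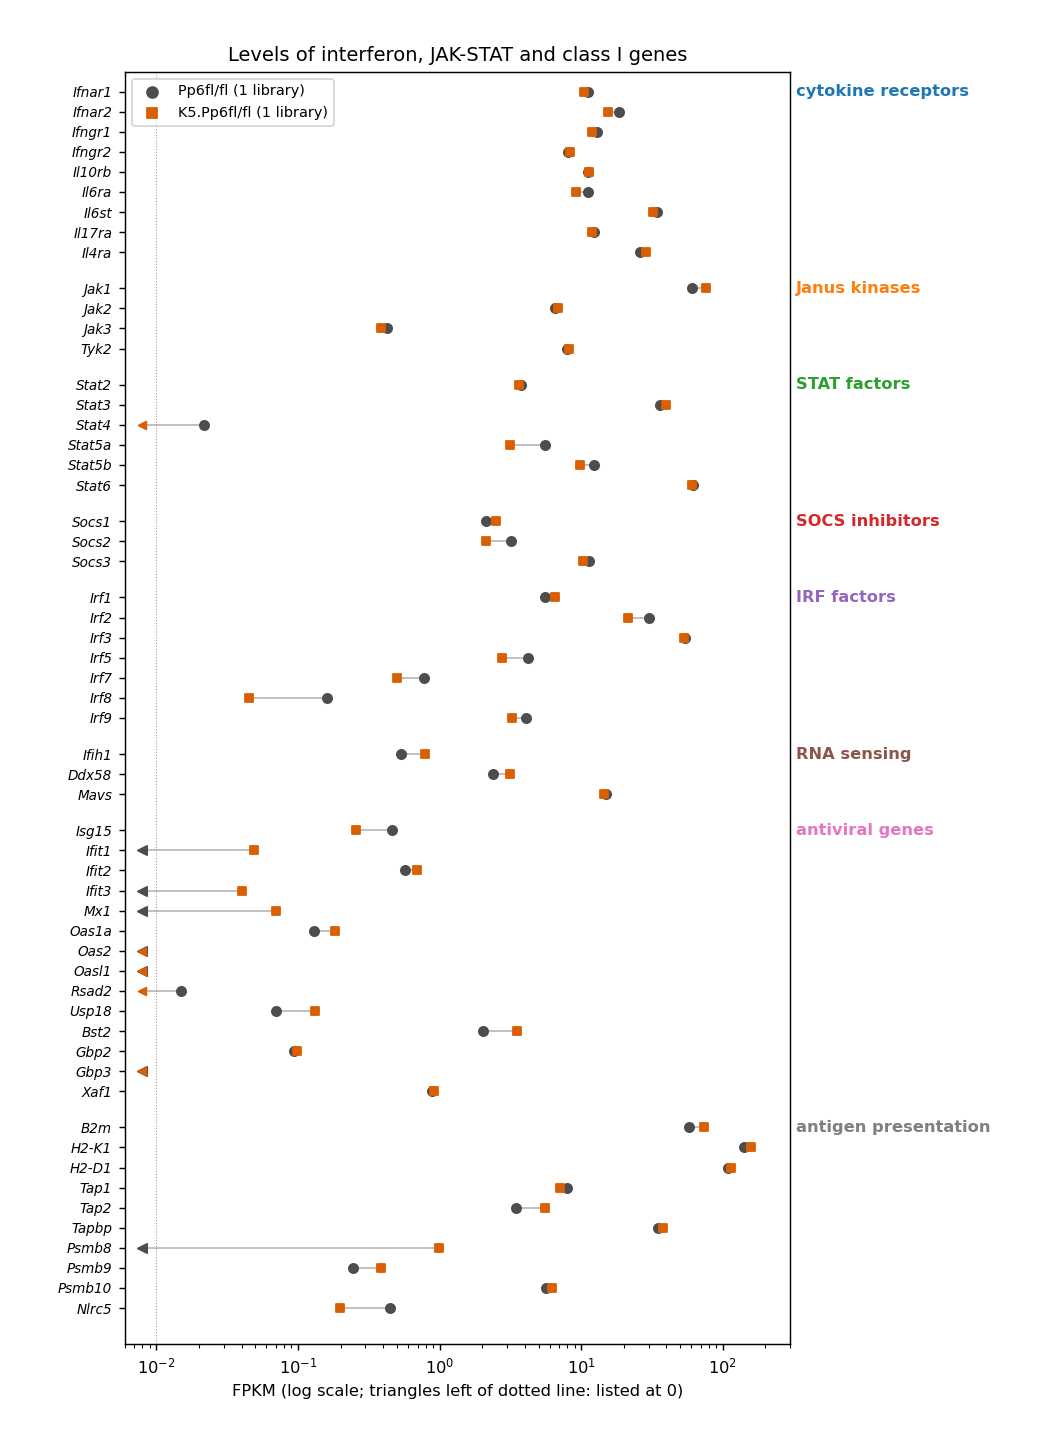
FPKM (log axis) of all 56 members in the Pp6fl/fl library (grey circles) and the K5.Pp6fl/fl library (orange squares), grouped by role; triangles left of the dotted line are listed at 0. Most pairs lie close together, and the antiviral genes sit at the left, with Bst2 the highest of them at 2.03 and 3.52 FPKM.

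All 9 receptor genes were expressed, and none was 1.5-fold apart. Il6st, which encodes the shared chain gp130 of the IL-6 family, was the most abundant by reads, with 4046 and 3471, a fold of 0.955 whose interval (0.912 to 1.0) reached just short of 1. Il6ra, the ligand-binding chain for IL-6, had 942 and 689 reads, 48.7 and 39.6 CPM (fold 0.814, 0.737 to 0.899). It was the lowest fold among the receptors. Ifnar2, a chain of the type I interferon receptor, had 445 and 335 reads (fold 0.838, 0.725 to 0.968). Its partner Ifnar1 had 744 and 632 reads (fold 0.946, 0.849 to 1.05). The type I receptor chains thus both had folds below 1, and for Ifnar2 the interval stayed below it. For the interferon gamma receptor the folds were 0.97 (0.841 to 1.12) for Ifngr1, at 21.8 and 21.1 CPM, and 1.04 (0.906 to 1.18) for Ifngr2, at 23.8 and 24.6 CPM. Il10rb, a chain shared by the receptors for IL-10, IL-22 and interferon lambda, was at 17.2 and 17.4 CPM (fold 1.02, 0.867 to 1.19). Il17ra was at 31.7 and 32.1 CPM (fold 1.01, 0.902 to 1.14), and does not signal through Janus kinases. Il4ra, which binds IL-4 and IL-13 and activates STAT6, was the 1 receptor with an interval above 1, at 1730 and 1783 reads, 89.4 and 103 CPM (fold 1.15, 1.07 to 1.23).

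The 4 Janus kinases had intervals that included 1. Jak1, which serves both interferon receptors and gp130, was by far the most abundant, at 4281 and 3985 reads and 221 and 229 CPM (fold 1.04, 0.992 to 1.08). Jak2 was at 30.8 and 32.3 CPM (fold 1.05, 0.934 to 1.18). Tyk2, the partner of JAK1 at the type I receptor, was at 34.5 and 35.4 CPM (fold 1.03, 0.918 to 1.15). Jak3, which works with the common gamma chain of lymphocytes, was close to the floor with 27 and 22 reads (fold 0.907, 0.492 to 1.65).

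Among STAT genes 1 of the 5 expressed had an interval above 1 and 3 below, against 16.6% and 17.4% of all expressed genes. Stat3, the main factor downstream of gp130, was at 2574 and 2486 reads and 133 and 143 CPM (fold 1.08, 1.02 to 1.14). Stat6 was at 3521 and 2873 reads and 182 and 165 CPM (fold 0.908, 0.864 to 0.955). By CPM its upstream receptor gene Il4ra thus differed in the opposite direction. By FPKM, however, Stat6 hardly differed, at 61.7 and 61.1 (fold 0.989). Stat5a had 273 and 182 reads, 14.1 and 10.5 CPM (fold 0.742, 0.612 to 0.899). Stat5b had 960 and 779 reads, 49.6 and 44.8 CPM (fold 0.903, 0.821 to 0.994). These neighbouring genes share part of their sequence: 8.21% of the distinct 50-base stretches of Stat5a transcripts occur in Stat5b, and 10.98% of those of Stat5b in Stat5a. Their summed reads, 1233 and 961, do not depend on how shared reads were divided, and gave a fold of 0.868 (0.797 to 0.945). Stat2, the interferon-specific member, was at 15.5 and 14.8 CPM (fold 0.961, 0.81 to 1.14). Stat4, a factor of lymphocytes, had 1 and 0 reads.

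Of the SOCS inhibitors, whose genes are themselves targets of STAT factors, none had an interval that left out 1. Socs3, which binds gp130, was the most abundant at 24.4 and 23.1 CPM (fold 0.944, 0.824 to 1.08). Socs1, the inhibitor of interferon signalling, had 38 and 40 reads (fold 1.17, 0.733 to 1.88). Socs2 had 99 and 70 reads (fold 0.787, 0.571 to 1.08). The 3 inhibitor genes thus went to either side of 1, each within its counting error.

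The IRF factors spanned nearly the full range of levels. Irf3, the factor that RNA and DNA sensors activate, was at 1253 and 1118 reads and 64.8 and 64.3 CPM (fold 0.993, 0.916 to 1.08). Irf2 was at 28.3 and 29.6 CPM (fold 1.04, 0.924 to 1.18). Irf9, the DNA-binding part of the complex with STAT2, was at 9.41 and 7.59 CPM (fold 0.807, 0.64 to 1.02). Irf1, which interferon gamma induces, had 123 and 143 reads, 6.36 and 8.23 CPM (fold 1.29, 1.01 to 1.66). It was the 1 IRF gene with an interval above 1, and that interval began close to 1. Irf5 had 136 and 89 reads (fold 0.729, 0.551 to 0.959). Its exons overlap those of Tnpo3 on the opposite strand over 14.1% of their length, and with a kit that does not mark strand such reads cannot be told apart. Tnpo3 had 3954 and 3416 reads, so the value of Irf5 itself is uncertain. Irf7, the amplifier of interferon production and itself an interferon target, had only 14 and 13 reads. Irf8, a factor of myeloid cells, had 6 and 2.

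Ifih1, the 1 member past the 1.5-fold rule in the upward direction, was an RNA sensor gene. It encodes the sensor MDA5 of long double-stranded RNA, had 42 and 61 reads, 2.17 and 3.51 CPM (fold 1.62, 1.07 to 2.46). Ddx58, which encodes RIG-I, the sensor of RNA with a 5′ triphosphate, had 163 and 190 reads, 8.42 and 10.9 CPM (fold 1.3, 1.05 to 1.61). Both genes are also interferon targets. Mavs, the mitochondrial adaptor that both sensors signal through, was more abundant at 38.96 and 37.2 CPM and had a fold of 0.954 (0.857 to 1.06). Both sensor genes thus had intervals above 1, and the interval of their adaptor included 1. Ifih1 only just passed the rule. On the counts as deposited its fold was 1.61 and by FPKM 1.47, and in neither case did it pass. By FPKM both its values lie under the floor of 1, as its CPM values lie under the alternative floor of 5 CPM. With a pseudocount of 2 CPM it did not pass either.

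Of the 14 antiviral genes, 12 stayed below 1 CPM in both libraries, and these 12 together had 24 and 28 reads. Isg15, a ubiquitin-like modifier and a standard marker of interferon response, had 4 and 2 reads. Ifit1, which binds foreign RNA caps, had 0 and 2, Ifit3 had 0 and 1, and Mx1, a GTPase that blocks viral replication, had 0 and 3. Usp18, the protease that removes ISG15, had 2 and 3, Gbp2 had 1 and 2, and Rsad2 (viperin) had 1 and 0. Oas2, Oasl1 and Gbp3 had no reads in either library. A count of 0 allows up to 3 reads, which is 0.155 and 0.173 CPM. Small differences in these genes could not be detected at this depth. For Isg15, for example, the interval of the fold ran from 0.0504 to 3.88. Of the 9 among these 12 that have a promoter window, 7 hold the response element letters shown above. Oas1a had 4 and 5 reads. Ifit3 and Oas1a have near copies, sharing 51.2% of their 50-base stretches with Ifit3b and 57.6% with Oas1g. The sums with those copies remained at 0 and 1 reads for Ifit3 and 5 and 5 for Oas1a. Xaf1, linked to apoptosis, had 12 and 10 reads.

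The 2 antiviral genes above the floor were themselves low. Bst2, which encodes tetherin, a membrane protein that holds budding virus on the cell, had 18 and 28 reads, 0.930 and 1.61 CPM. Its fold of 1.73 was the highest of the expressed members, but the interval (0.925 to 3.32) included 1. Ifit2 had 39 and 42 reads (fold 1.2, 0.757 to 1.90).

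Of the 10 antigen presentation genes, 8 were expressed, and 7 of these 8 had a log2 ratio above 0, where 46.9% of all expressed genes did. Their median was 0.10. B2m, the invariant light chain of every class I molecule, had 623 and 711 reads, 32.2 and 40.9 CPM (fold 1.27, 1.14 to 1.42). H2-K1 had 3439 and 3435 reads, 178 and 198 CPM (fold 1.11, 1.06 to 1.17). H2-D1 had 3533 and 3353 reads, 183 and 193 CPM (fold 1.06, 1.01 to 1.11). The light chain and both heavy chains thus had intervals above 1, and each was higher by less than 1.5-fold. Class I genes resemble each other, and 9.63% of the 50-base stretches of H2-K1 and 12.8% of those of H2-D1 occur in other genes, so reads could be divided between them in more than 1 way.

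Genes that load peptides onto class I differed little. Tapbp (tapasin), which holds the class I molecule at the peptide transporter, was at 69.1 and 69.6 CPM (fold 1.01, 0.931 to 1.09). The transporter subunits Tap1 and Tap2 were at 18.3 and 18.9 CPM and at 10.1 and 11.6 CPM, with folds of 1.03 (0.883 to 1.20) and 1.15 (0.938 to 1.40). Nlrc5, the transactivator of class I genes, went the other way, with 47 and 23 reads, 2.43 and 1.32 CPM (fold 0.545, 0.316 to 0.915). It was the lowest fold of all expressed members, while B2m, H2-K1 and H2-D1, class I genes it is known to control, had intervals above 1. Nlrc5 did not pass the 1.5-fold rule with a floor of 5 CPM, which its values do not reach, or with a pseudocount of 2 CPM. By FPKM its fold was 0.449, from values under 1 FPKM.

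Melanocyte markers moved in the same direction as the class I and RNA sensor genes. Of 6 markers 4 were expressed, all 4 with a log2 ratio above 0, against 46.9% of all expressed genes. The list summed to 7.39 and 15.3 CPM, with Pmel at 2.17 and 4.83, Tyrp1 at 2.48 and 4.95 and Dct at 1.65 and 3.51. Fibroblast markers summed to 0.775 and 0.920 CPM and endothelial markers to 0.775 and 1.496 CPM. The part of other cells in the class I and RNA sensor values was not tested.

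The immune proteasome subunits, which replace constitutive ones when interferon is sensed and change the peptides that are cut, were rare. Psmb10 was expressed, with 106 and 104 reads (fold 1.09, 0.825 to 1.45). By FPKM it stood at 5.67 and 6.22, against 141 and 149 for its constitutive counterpart Psmb7. Psmb9 had 5 and 7 reads, 0.247 and 0.386 FPKM, against 217 and 208 FPKM for its counterpart Psmb6. Its start lies 226 bases from that of Tap1, whose reads were 355 and 328. Psmb8 had 0 and 15 reads, 0 and 0.863 CPM, a fold whose 95% interval begins at 3.99 and which is 5.57 when the count of 0 is taken as 3 reads. Its level of 0.999 FPKM there was still far below that of its counterpart Psmb5, at 159 and 163 FPKM. Psmb8 is below the floor and is listed at 0 in the Pp6fl/fl library, where an estimate can also fail. Members were also summed with a near copy or an overlapping gene. For Ifnar2, Il10rb, Il4ra, Jak3, Tyk2, Tap2 and Tapbp the partner had at most 6 reads in a library, so the sum could hardly differ from the member. The sum of Stat5b with Stat5a kept an interval below 1 (0.797 to 0.945). For Irf5 the sum holds mostly reads of Tnpo3 and says nothing of Irf5. The gene Gm20496, which overlaps Psmb8 on the opposite strand, had no reads in either library.

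**Figure D3:**
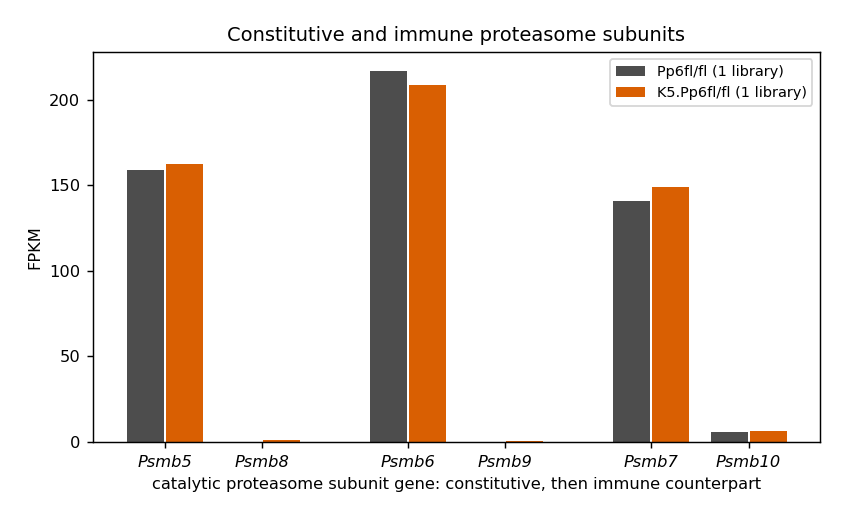
FPKM of the 3 constitutive catalytic proteasome subunit genes and, to the right of each, the immune counterpart, in the Pp6fl/fl library (grey bars) and the K5.Pp6fl/fl library (orange bars). The constitutive genes lie between 141 and 217 FPKM, and the immune genes at 6.22 or less.

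CPM and FPKM differed for a few members. FPKM divides by a length, which RSEM estimates from the isoforms that reads are assigned to. For 3 expressed members the fold lay on opposite sides of 1 by CPM and by FPKM. Irf2 had a fold of 1.04 by CPM and 0.714 by FPKM, from 30.1 to 21.5 FPKM. Tap1 had 1.03 and 0.895, and Il17ra 1.01 and 0.973. A further member, Tap2, was 1.15-fold higher by CPM and 1.62-fold by FPKM, from 3.46 to 5.60. Stat5a was lower by both, at 0.742 by CPM and 0.571 by FPKM, and Jak1 stood at 1.04 and 1.25. The table has no values per isoform.

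**Figure D4:**
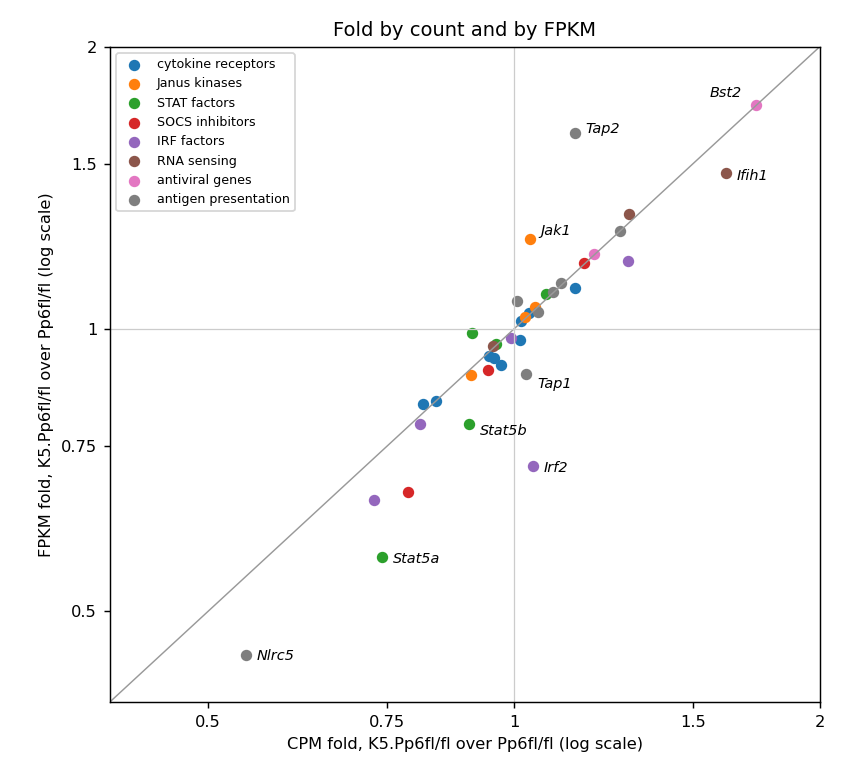
Fold by FPKM (vertical, log axis) against fold by CPM (horizontal, log axis) of the 39 members at 1 CPM or more, K5.Pp6fl/fl over Pp6fl/fl, coloured by role, with the line of equal folds. Most points lie near the line, Tap2 and Jak1 lie above it, and Irf2, Stat5a, Stat5b and Tap1 below it.

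An FDR under 0.05 was listed for 5 of the 56 members in the authors' deposited table, all of them expressed (12.8% of the 39), where 14.4% of expressed genes did. They were B2m (log2 fold change 0.35, FDR 0.00187), Il6ra (-0.26, 0.0105), Il4ra (0.14, 0.0205), Stat5a (-0.79, 0.0313) and H2-K1 (0.16, 0.0413) in the authors' deposited table. These values too rest on 1 library per genotype. For Stat5a the deposited log2 fold change lay near the FPKM fold (0.571), while the log2 ratio of CPM was -0.41. For Irf2 it was -0.48, near the FPKM fold of 0.714, where the CPM fold was 1.04. The sources used here do not say how the FDR was obtained, so it may not refer to the log2 fold change beside it.

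Most genes of a list of interferons and cytokines, not limited to ligands of the 9 receptors above, had no reads. Of 21 ligand genes 18 had no reads in either library, among them the interferons Ifnb1, Ifnk, Ifne, Ifng, Ifnl2 and Ifnl3 and the cytokine Il6. The 2 expressed were Il24, of the IL-10 family, at 44.7 and 63.8 CPM (fold 1.43, 1.30 to 1.56), and Lif, which signals through gp130, at 8.68 and 12.8 CPM (fold 1.48, 1.20 to 1.82). Both were higher by less than 1.5-fold, and Il19 had 14 and 9 reads. Of 15 other receptor genes 10 were expressed, and none was 1.5-fold apart. Of these, 2 had an interval above 1 and 2 below, against 16.6% and 17.4% of all expressed genes. The most abundant were Il17rc, at 105 and 85.4 CPM, and Osmr, the oncostatin M receptor, at 48.2 and 50.05 CPM. All 13 other negative regulators were expressed, and none was 1.5-fold apart. Of these, 1 had an interval above 1 and 4 below, against the same shares of all expressed genes. The phosphatase gene Ptpn11 was at 302 and 293 CPM and Socs6 at 104 and 135 CPM.

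Further interferon targets were somewhat better represented than the antiviral members. Of 42 listed, 22 were expressed, 17 of them with a log2 ratio above 0 (46.9% of all expressed genes), and the median was 0.15. The interval lay above 1 for 5 (16.6% of all expressed genes) and below 1 for 2 (17.4%), and 2 were at least 1.5-fold higher (3.47%). These were Igtp, an interferon-inducible GTPase, with 12 and 28 reads (fold 2.60, 1.28 to 5.61), and Oas3, with 47 and 70 reads (fold 1.66, 1.13 to 2.45). Of the 12 genes of sensing and IRF activation 8 were expressed, 6 with a log2 ratio above 0 and 4 with an interval above 1, against the same shares of 46.9% and 16.6%. The 1 past 1.5-fold was Tlr3, the endosomal sensor of double-stranded RNA, with 30 and 46 reads (fold 1.71, 1.05 to 2.80). Like Ifih1 and Ddx58, both members, Tlr3 had an interval above 1, on at most 190 reads each. Tlr3 is named because it passed the 1.5-fold rule, and the other sensor genes of its list are not given singly. Of the 8 expressed genes of sensing and IRF activation, 2 had a log2 ratio below 0 and 4 an interval that included 1. A list of 21 further class I and peptide loading genes also held genes not limited to class I. These were Calr, Canx, Pdia3, Lnpep and the constitutive proteasome genes Psmb5, Psmb6 and Psmb7. Of the 21, 16 were expressed, 14 with a log2 ratio above 0, 7 with an interval above 1 and none with one below. Over all expressed genes these shares were 46.9%, 16.6% and 17.4%. The median was 0.14. The class I related genes H2-Q4 and H2-T23 were 1.58-fold (1.26 to 1.98) and 1.52-fold (1.33 to 1.75) higher, from 6.98 to 10.99 and from 19.0 to 28.9 CPM. A log2 ratio below 0 was seen for 2 of the 16, among them H2-T24 (fold 0.901, 0.669 to 1.21).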

How the data were processed

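The submitters' processing notes name RSEM, edgeR and the mouse build mm8, without versions or roles. The sources used here name no aligner, annotation release or filter. In each library the authors' deposited estimated counts carry a constant factor, since low values are multiples of 1 step. Divided by that step, 97.3% and 97.4% of values under 100 reads were whole within 0.01 reads, and the resulting reads were rounded. The FPKM values, log2 fold changes, p-values and FDR are those deposited by the authors. The design had assumed unscaled counts.

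Symbols were matched by Ensembl ID for 47219 of 47719 genes. CPM used TMM-scaled totals (edgeR 4.0.16, R 4.3.3), with DESeq2 1.42.0 size factors as an alternative. The fold interval is the exact conditional binomial (Clopper-Pearson) at 95%. A gene passed a fold rule (2-fold or 1.5-fold) when the ratio of CPM plus 0.5 reached it, either library reached 1 CPM and the interval left out 1. The script was tested on simulated data. Shared 50-base stretches and exon overlaps come from GENCODE M21 (GRCm38), and promoter windows from RefSeq (GRCm38.p6), which is not the named build. All expressed members, low members by reads, and in each further list up to 4 genes past 1.5-fold or else the 2 most abundant are named, with the 3 most abundant keratinocyte and melanocyte markers; the other marker lists are given mainly as sums, and a few other genes were named after their values were seen. The members and lists were chosen with earlier results of these data known. Per the labels' protocols, polyadenylated RNA was captured and a TruSeq RNA kit was used, a kit that does not mark strand.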

Additional observations from a re-analysis of the deposited data

How the results depend on the processing

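The counts of members past a fold rule were small and moved with the treatment of low genes. With a floor of 5 CPM, 0 members were 1.5-fold higher and 0 lower, and with a pseudocount of 2 CPM also 0 and 0. Without a floor 1 member, Psmb8, was at least 2-fold higher and 2 were at least 1.5-fold higher. On the count columns as deposited 0 were 1.5-fold higher. By FPKM the rule added 1 FPKM to both values and used no interval, and 0 passed it upward. The 1 member that passed it downward by FPKM was Stat5a (fold 0.571). The plain FPKM folds of Bst2 (1.74), Tap2 (1.62) and Irf5 (0.657) were also 1.5-fold or more apart, but did not pass after that addition. Nlrc5 had a lower fold by FPKM (0.449), but both its values are under the FPKM floor of 1, as are those of Ifih1. DESeq2 size factors, library totals alone and a pseudocount of 0.1 CPM left these counts within 1.5 times. The median log2 ratio ran from -0.02 by FPKM to 0.04 without a floor. The folds of Stat5a, Stat5b, Stat6, Jak1, Irf2 and Tap2 left their counting interval by FPKM. No called fold changed direction under the alternatives run. No paired analysis was possible because there is 1 library per genotype, and for the same reason no replicate could be left out. Among members below 1 CPM with any reads, the interval left out 1 for Psmb8 and included 1 for all others.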
